A study of Mus musculus with 25 samples.

Results

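The monocarboxylate transporters of the SLC16 family and the membrane proteins that escort them to the cell surface were examined in RNA sequencing of 25 mouse hearts. The members were chosen by name: the carriers Slc16a1, Slc16a3, Slc16a7 and Slc16a10, and the chaperones Bsg (basigin) and Emb (embigin). They are 6 of the 56941 genes in the count table, and all 6 were among the 17682 genes that had enough reads to be tested. The hearts came from wild-type (WT) mice or mice labelled MCT1KO, after 3 treatments labelled no pump, saline and Ang/PE. Ang/PE stands for neurohormonal agonists that make the heart muscle hypertrophy. There were 4 WT hearts and 3 hearts labelled MCT1KO without a pump, 6 and 4 with saline, and 3 and 5 with Ang/PE. The labels give no strain, age, sex, dose or length of infusion. They also do not give the MCT1KO allele, the deleted stretch of the gene or the cell type in which it was deleted. The study addresses how the heart handles lactate during hypertrophy, and MCT1 is the protein encoded by Slc16a1.

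Monocarboxylate transporters move lactate, pyruvate and ketone bodies across membranes together with a proton, in the direction set by the gradients. MCT1 (Slc16a1) is the main carrier through which heart muscle takes up and releases lactate, MCT2 (Slc16a7) binds pyruvate and lactate with high affinity, and MCT4 (Slc16a3) serves lactate export in glycolytic cells. Slc16a10 encodes TAT1, a family member that carries aromatic amino acids and not lactate. MCT1, MCT2 and MCT4 have many membrane-spanning helices and need an immunoglobulin-like partner to reach the surface. Basigin escorts MCT1 and MCT4, and embigin is the preferred partner of MCT2.

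Total counts per heart, in units of 10⁶, ran from 12.22 to 24.88, and the ranges differed between groups: 18.38 to 24.88 in WT hearts without a pump against 12.22 to 16.57 in hearts labelled MCT1KO with Ang/PE. Levels are given as CPM, a gene's count per 10⁶ counts of a library size scaled by the TMM method of edgeR. Heart tissue was evident in every library: 5 ventricular muscle markers (Myl2, Myh6, Actn2, Ryr2, Tnni3) summed to between 27400 and 51220 CPM. Atrial muscle markers (Myl4, Myl7, Sln, Nppa) varied far more, with a median sum of 1040 CPM in WT saline hearts, 2196 CPM in saline hearts labelled MCT1KO and at most 132 CPM in WT hearts without a pump. Nppa alone ran from 20.4 to 5144 CPM over the hearts, against at most 1975 CPM for Myl4, 1357 CPM for Myl7 and 348 CPM for Sln. A high sum can thus be mostly Nppa and does not by itself mean atrial tissue. The 4 saline hearts labelled MCT1KO held 2384, 2009, 64.1 and 7385 CPM of these atrial markers in replicates 1 to 4. Their 5 fat markers (Ucp1, Adipoq, Plin1, Cidea, Cidec) summed to 62.0, 46.7, 11.4 and 1216 CPM, against at most 18.2 CPM in all 15 hearts that were not given saline. Replicate 4 of that group thus held the most fat marker RNA and also the least ventricular marker RNA of the 25 hearts. Xist, which is transcribed in female cells, was above 100 CPM in 2 of 4, 0 of 3, 1 of 6, 3 of 4, 3 of 3 and 4 of 5 hearts in the order of groups given above, so the groups were not balanced for it. In such whole-tissue RNA, fewer cells of a type and less RNA per cell cannot be told apart. Nothing in the labels ties a heart to a litter or a day, and the p-values measure only the spread between these samples.

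The members covered a wide range of levels in the heart. Per kilobase of exon, Bsg was highest, with a median of 416 CPM per kb over the 25 hearts (188 to 492), above 99.3% of all tested genes by CPM. Slc16a1 followed at 44.6 CPM per kb (29.9 to 56.3), and no heart had a Slc16a1 level per kb near that of Bsg. Slc16a10 had a median of 3.89 CPM per kb (2.32 to 4.65). Slc16a7 had 1.37 CPM per kb (0.810 to 2.34), so its highest heart just reached the lowest for Slc16a10. Slc16a3, the MCT4 gene, had 0.449 CPM per kb (0.222 to 0.867). Emb was lowest at 0.199 CPM per kb (0.101 to 0.700), a range that overlapped that of Slc16a3. The lactate carrier transcripts of these hearts were thus mostly Slc16a1: within a heart its level per kb was 12.8 to 69.4 times that of Slc16a7 (median 32.2) and 42.1 to 239 times that of Slc16a3 (median 94.6). Between the chaperones the gap was wider still, with Bsg per kb at 269 to 4556 times Emb (median 2102). Bsg per kb was 6.30 to 12.1 times Slc16a1 (median 9.36), a ratio that stayed within a narrow band compared with the others. These ratios use the exon length of all annotated transcripts together and shift with the transcripts a heart uses.

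The depth behind the members differed as much as their levels. Bsg had 5787 to 19779 counts in a heart, Slc16a1 2243 to 5166, Slc16a10 284 to 651 and Slc16a7 151 to 475. Slc16a3 had only 16 to 68 counts and Emb 12 to 82, and these members also had the largest spread between hearts of a group, with a pooled SD of 0.52 and 0.53 on the log2 CPM scale. The SD was 0.21 for Slc16a1, 0.22 for Slc16a10, 0.26 for Bsg and 0.31 for Slc16a7, against a median of 0.26 over all tested genes.

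**Figure D1:**
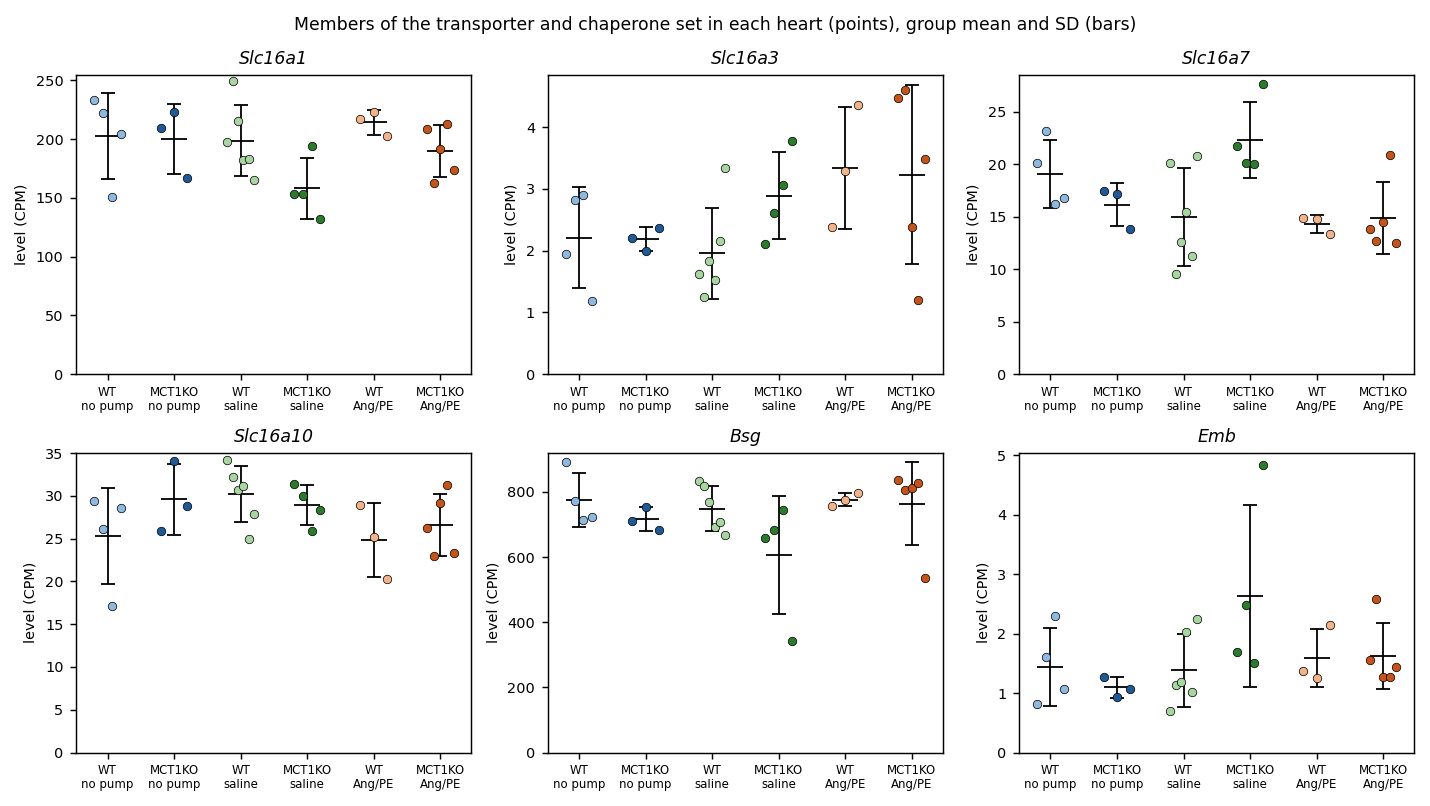
Level of each of the 6 members in CPM (vertical axis, linear, 1 panel per gene) in every heart of the 6 groups; points are hearts and bars are the group mean ± SD. Slc16a1 lies between 132 and 249 CPM in every group, and the saline hearts labelled MCT1KO hold the highest Slc16a7 and Emb points and the lowest Bsg point.

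Slc16a1 (ENSMUSG00000032902) was examined first, since it is the gene named by the MCT1KO label. Without a pump its level was 233, 222, 150.3 and 204 CPM in the WT hearts and 209.8, 223 and 166.5 CPM in the hearts labelled MCT1KO, with wide overlap. In the WT saline hearts the lowest, median and highest values were 165, 190 and 249 CPM, and the saline hearts labelled MCT1KO had 153, 153, 194 and 132 CPM. With Ang/PE the WT hearts had 217, 223 and 203 CPM, and those labelled MCT1KO had 209, 162, 192, 213 and 173 CPM. Of the saline hearts labelled MCT1KO, 3 of 4 lay below all WT saline hearts and replicate 3 lay among them; with Ang/PE the groups overlapped. The Slc16a1 transcript was thus present in every heart under both labels. Every direction given here for hearts labelled MCT1KO rests on the label alone. The count sums reads over the whole gene, so the check holds only as far as the deleted stretch contributes to it.

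On the log2 scale Slc16a1 differed between the genotype labels by −0.02 (SE 0.15, edgeR adjusted p 0.976) without a pump. With saline the difference was −0.33 (SE 0.13, 95% confidence interval −0.60 to −0.06), a change of −20.4% against WT with an interval of −34.0% to −3.98%. Its unadjusted edgeR p of 0.0192 became 0.219 after adjustment. With Ang/PE it was −0.18 (SE 0.15, edgeR adjusted p 0.807). Averaged over the treatments it was −0.18 (SE 0.08, unadjusted p 0.0461, edgeR adjusted p 0.429), or −11.4%, with a confidence interval from −21.4% to −0.229%. A change beyond −34.0% lies outside the unadjusted interval of each of these 4 comparisons. Under the same label, saline hearts had less Slc16a1 than hearts without a pump by −0.34 (SE 0.15, unadjusted p 0.0373, edgeR adjusted p 0.376). The saline differences were smaller with the atrial and fat markers as covariates: −0.19 between the labels and −0.03 against no pump. With Xist added they were −0.10 and 0.0816. The marker covariates here and below were mean log2 levels of the fat markers and of Myl4, Myl7 and Sln, without Nppa.

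The 6 members were tested in 14 comparisons, which gave 84 tests. None passed an adjusted p of 0.05 in edgeR, whose smallest adjusted p was 0.078, and 13 had an unadjusted p below 0.05. These counts are given with the share of all tested genes that reached the same threshold. Between the genotype labels, 0 of 6 members and 0% of all genes passed the adjusted threshold in each treatment and in the average. At an unadjusted p below 0.05 there were 0 members without a pump against 12.2% of all genes, 3 with saline against 17%, 0 with Ang/PE against 6.92%, and 1 in the average against 11.4%. With saline the 3 members were Slc16a1, which was lower, and Slc16a7 and Emb, which were higher. The median log2 difference of the 6 members with saline was 0.24, against 0.03 over all genes.

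For Ang/PE against saline, 0 members passed in edgeR in WT hearts, in hearts labelled MCT1KO or in their average, against 0.017%, 4.46% and 8.12% of all genes. At an unadjusted p below 0.05 there was 1 member in each of these comparisons, against 19.1%, 20.4% and 24.7% of all genes. In the first it was Slc16a3 and in the others Slc16a7. For saline against no pump, 0 members passed, against 6.61% of all genes in WT hearts, 0.00566% in hearts labelled MCT1KO and 0.803% in the average. At an unadjusted p below 0.05 there were 0 members in WT hearts against 24.3%, 3 in hearts labelled MCT1KO against 12.1%, and 1 in the average against 18.6%.

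Ang/PE against no pump gave 0 members past the adjusted threshold in edgeR, against 0% of all genes in WT hearts and 0.503% in hearts labelled MCT1KO. It also gave 0 at an unadjusted p below 0.05, against 9.02% and 13.1%. The interactions, which test whether a treatment step differs between the labels, again gave 0 members past the adjusted threshold, against 0% for Ang/PE against saline and 0.00566% for saline against no pump. At an unadjusted p below 0.05 there were 0 members for the Ang/PE step against 13.5%, and 2 for the saline step against 17.2%. These comparisons share hearts. The 4 saline hearts labelled MCT1KO enter 9 of the 13 tests with an unadjusted p below 0.05 within single groups or in interactions, and 3 more as part of an average, so these tests do not repeat each other independently.

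**Figure D2:**
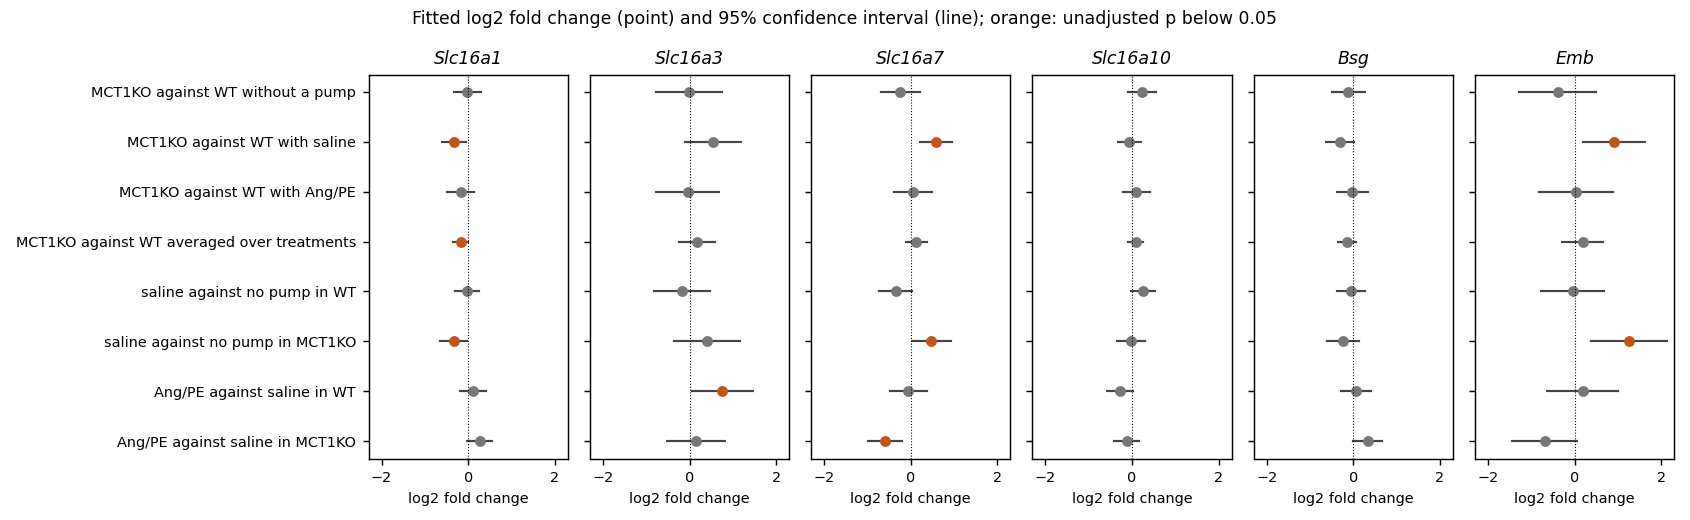
Log2 fold change (horizontal axis) with its 95% confidence interval for the 6 members in 8 comparisons from the edgeR model of all 25 hearts; orange marks an unadjusted p below 0.05 and no adjusted p is below 0.05. The intervals of Emb and Slc16a3 are the widest. The difference farthest from 0 is that of Emb in a comparison that holds the saline hearts labelled MCT1KO.

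Slc16a7 (ENSMUSG00000020102), which encodes MCT2, stood highest in the saline hearts labelled MCT1KO. Those 4 hearts had 21.7, 20.1, 19.99 and 27.7 CPM, while the WT saline hearts had a lowest, median and highest value of 9.59, 14.01 and 20.8 CPM. The 3 hearts of the same label without a pump had 17.5, 17.2 and 13.8 CPM. With Ang/PE that label had 13.8, 12.7, 14.5, 20.9 and 12.5 CPM. All 4 saline hearts labelled MCT1KO thus lay above all 3 without a pump, whereas they overlapped the WT saline hearts and 1 of the Ang/PE hearts. Among WT hearts Slc16a7 was at 20.2, 23.1, 16.2 and 16.8 CPM without a pump and at 14.9, 14.8 and 13.4 CPM with Ang/PE, again without overlap.

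Against WT saline hearts the Slc16a7 difference was 0.58 on the log2 scale (SE 0.18), or 1.49-fold, with an unadjusted p of 0.00425 and an edgeR adjusted p of 0.154. From saline to Ang/PE under the MCT1KO label it was −0.59 (SE 0.19), a change of −33.6%, with an unadjusted p of 0.00539 and an edgeR adjusted p of 0.078. The same step averaged over the genotypes gave −0.33 (SE 0.14, unadjusted p 0.0304, edgeR adjusted p 0.151). Saline against no pump under the MCT1KO label gave 0.47 (SE 0.22, unadjusted p 0.0426, edgeR adjusted p 0.392). The interaction of the label with the saline step was 0.82 (SE 0.29, unadjusted p 0.00859, edgeR adjusted p 0.161). The adjusted p of Slc16a7 for Ang/PE against saline under the MCT1KO label was 0.0383 when Ang/PE replicate 4, its highest heart in that group, was left out. It was 0.317 when saline replicate 4 was left out.

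Relative to Slc16a1, Slc16a7 took a larger part of the lactate carrier transcripts in the saline hearts labelled MCT1KO. Slc16a1 per kb was 12.8 to 26.0 times Slc16a7 there (median 19.6), and 21.3 to 69.4 times in WT saline hearts (median 37.4). The ranges overlapped. With the atrial and fat markers as covariates the Slc16a7 difference between the labels with saline was 0.27 in place of 0.58, the step from saline to Ang/PE was −0.34, the step from no pump to saline 0.22 and the interaction 0.47. With Xist added to these covariates, the same differences were 0.0719, −0.29, −0.0199 and 0.13. Without saline replicate 4, the heart richest in fat and atrial markers, the difference between labels with saline was 0.47 (edgeR adjusted p 0.709). Saline replicate 3, whose markers were as low as those of hearts without saline, had 19.99 CPM of Slc16a7. That was the lowest of its group and above all 3 hearts of its label without a pump. Outside its group, WT no pump replicates 1 and 2 and WT saline replicate 1 had more, at 20.2, 23.1 and 20.1 CPM. Their atrial sums were 91.1, 74.25 and 46.6 CPM. WT saline replicate 6 and MCT1KO Ang/PE replicate 4 also had more, at 20.8 and 20.9 CPM. Their atrial sums were higher, at 1488 and 495.7 CPM. The part of these markers in the Slc16a7 levels was not tested.

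Emb (ENSMUSG00000021728), the chaperone preferred by MCT2, was close to the lower limit of what these libraries count. Without a pump it was at 0.812, 1.61, 2.298 and 1.07 CPM in WT hearts and at 1.28, 0.937 and 1.07 CPM in hearts labelled MCT1KO. The WT saline hearts had 0.698, 1.13, 1.19, 2.03, 1.02 and 2.25 CPM, and the saline hearts labelled MCT1KO had 1.69, 2.49, 1.5 and 4.84 CPM. With Ang/PE the WT hearts had 1.37, 1.26 and 2.14 CPM, and those labelled MCT1KO had 1.55, 2.58, 1.27, 1.27 and 1.44 CPM. All 4 saline hearts labelled MCT1KO lay above the 3 without a pump, and replicate 4 lay above every other heart of the series. With Slc16a7, Emb made 2 of 6 members whose groups did not overlap in saline against no pump under the MCT1KO label, against 8.6% of all tested genes. In Ang/PE against no pump in WT hearts, 1 of 6 members did not overlap, which was Slc16a7, against 10.7% of all tested genes.

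Emb was 1.88-fold as high in saline hearts labelled MCT1KO as in WT saline hearts, a log2 difference of 0.91 (SE 0.34, unadjusted p 0.0139, edgeR adjusted p 0.2). Against no pump under the same label it was 1.25 (SE 0.42, unadjusted p 0.00696, edgeR adjusted p 0.236). Averaged over the genotypes, saline against no pump gave 0.60 (SE 0.28, unadjusted p 0.0397, edgeR adjusted p 0.24), and the interaction of the label with the saline step was 1.30 (SE 0.55, unadjusted p 0.0265, edgeR adjusted p 0.233). Leaving out saline replicate 4 brought these 4 differences to 0.44, 0.78, 0.37 and 0.83. With the atrial and fat markers as covariates they were 0.15, −0.11, −0.35 and 0.47, so the sign of the steps from no pump to saline turned. With Xist added to these covariates all 4 turned, to −0.30, −0.66, −0.49 and −0.34. The Emb heart highest in its Ang/PE group was replicate 2 labelled MCT1KO. Its atrial markers, with Nppa included, summed to 5149 CPM, against 315.5 to 1762 CPM in the other 4 hearts. This heart was the highest of all 25 in the summed markers of fibroblasts (1744 CPM), red cells (2134 CPM) and neutrophils (5.45 CPM). The part of these markers in its Emb level was not tested. The exons of Emb overlap a gene on the opposite strand, Gm17509, over 9.93% of their length, and nothing says whether reads were counted by strand.

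Bsg (ENSMUSG00000023175), the chaperone of MCT1 and MCT4, was abundant and even across most hearts. Without a pump it was at 775 ± 82.0 CPM (SD, n = 4) in WT hearts and at 716 ± 36.8 CPM (n = 3) under the MCT1KO label. With saline it was at 748 ± 69.0 CPM (n = 6) in WT hearts, and the hearts labelled MCT1KO had 658, 683, 745 and 341 CPM. With Ang/PE the WT hearts were at 776.6 ± 20 CPM (n = 3), and the hearts labelled MCT1KO had 836, 805.5, 812, 828 and 536 CPM. A single low heart stood apart in each of the last groups under the MCT1KO label, saline replicate 4 and Ang/PE replicate 5. The other 4 Ang/PE hearts of that label lay above all 3 WT hearts with Ang/PE and above all hearts of their own label without a pump or with saline, and replicate 5 lay below all 3 WT hearts with Ang/PE. That split leaves out the heart that goes the other way. With all hearts the labels overlapped with Ang/PE, at an unadjusted edgeR p of 0.888. Saline replicate 4 is the heart with the least ventricular and the most fat marker RNA of the 25. Ang/PE replicate 5 had the least ventricular marker RNA of its group, 33490 CPM, and its fibroblast markers (Pdgfra, Dcn, Col1a1, Col1a2) summed to 1495 CPM, against 791 to 1744 CPM in the other 4 hearts. The Ang/PE heart with the most atrial and fibroblast marker RNA, replicate 2, had 805.5 CPM of Bsg, close to the hearts with less. The part of these markers in the low Bsg values was not tested. Bsg had no unadjusted p below 0.05 in any of the 14 comparisons.

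Slc16a3 (ENSMUSG00000025161), the MCT4 gene, had a low level in every group. WT saline hearts had a lowest, median and highest value of 1.25, 1.73 and 3.33 CPM, and WT hearts with Ang/PE had 2.39, 3.29 and 4.36 CPM. Only the highest WT saline heart reached into the Ang/PE range. The difference of 0.76 on the log2 scale (SE 0.34), or 1.69-fold, had an unadjusted p of 0.035 and an edgeR adjusted p of 0.225. With Xist as a covariate it was 0.48, and 0.34 with the atrial and fat markers added; 3 of 3 WT hearts with Ang/PE and 1 of 6 WT saline hearts had Xist. Hearts labelled MCT1KO had 2.11, 2.62, 3.06 and 3.78 CPM with saline and 4.48, 4.61, 2.39, 1.196 and 3.48 CPM with Ang/PE, which overlapped.

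Slc16a10 (ENSMUSG00000019838), the aromatic amino acid carrier, varied little. Its group means ran from 24.8 ± 4.33 CPM (SD, n = 3) in WT hearts with Ang/PE to 30.2 ± 3.27 CPM (n = 6) in WT saline hearts, and all 6 groups overlapped. No comparison gave an unadjusted edgeR p below 0.05, and its smallest was 0.0565.

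**Figure D3:**
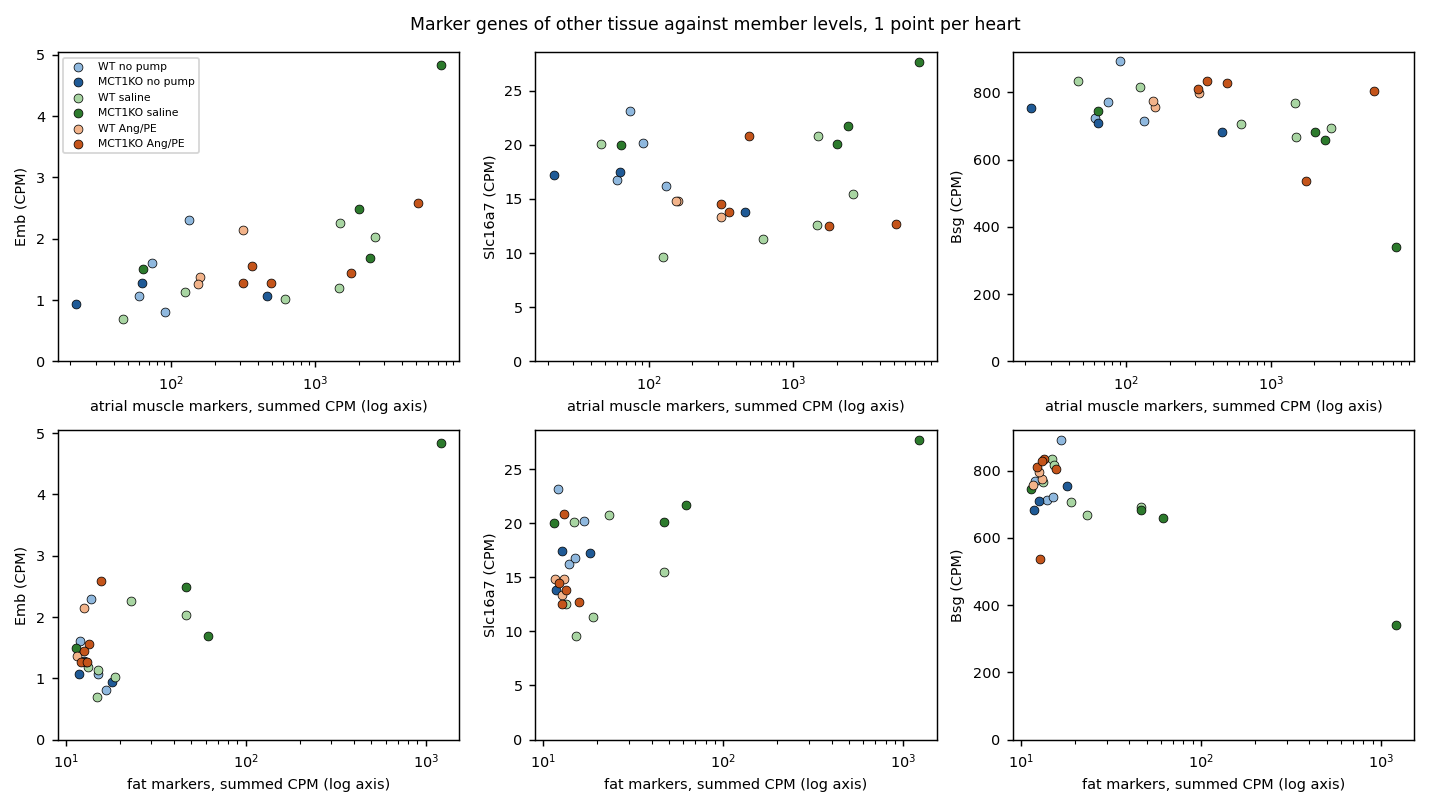
Summed CPM of the atrial markers and of the fat markers (horizontal axes, logarithmic) against the CPM of Emb, Slc16a7 and Bsg (vertical axes) in the 25 hearts, with points marked by group. MCT1KO saline replicate 4, with 1216 CPM of fat markers, is the highest Emb and Slc16a7 point and the lowest Bsg point.

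Whether the transporters and chaperones varied together from heart to heart was examined over the 15 pairs of members. The correlations used log2 CPM, first over all 25 hearts and then on deviations from the group means, each with 100000 permutations, two-sided and adjusted over the 15 pairs. Over all hearts 5 pairs had an adjusted permutation p below 0.05, and within groups 7 did. The share of all gene pairs that reach such correlations was not computed, so these counts do not show a relation particular to the members. CPM are shares of a library, and the part of tissue makeup in these relations was not tested.

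The MCT1 gene and its chaperone varied together. Over all hearts Slc16a1 and Bsg had Pearson r = 0.69 (adjusted permutation p 0.000675) and Spearman rho = 0.66 (adjusted permutation p 0.00255). Without the 2 hearts farthest from the median of Slc16a1, r was 0.61. Within groups r was 0.58 (adjusted permutation p 0.0266) and rho 0.63 (adjusted permutation p 0.0191). The pooled r ran from 0.60 to 0.73 when any single heart was left out. The adjusted p within groups was above 0.05 without 1 heart, WT saline replicate 6, at 0.0556 with r = 0.56.

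Slc16a1 and Emb went opposite ways, with r = −0.71 over all hearts (adjusted permutation p 0.000675) and rho = −0.64 (adjusted permutation p 0.00281). Without the 2 farthest hearts r was −0.55. Within groups r was −0.65 (adjusted permutation p 0.022) and rho −0.55 (adjusted permutation p 0.0278). Leaving out WT no pump replicate 3 or WT saline replicate 6 took the adjusted p within groups to 0.0525 and 0.0556. Between the chaperones, Bsg and Emb had r = −0.63 over all hearts (adjusted permutation p 0.00945), which was −0.30 (adjusted permutation p 0.286) without MCT1KO saline replicate 4. Their r within groups was −0.57 (adjusted permutation p 0.0451), and it did not pass without any one of 15 of the 25 hearts. Without the 2 hearts farthest from the median of Bsg, r was −0.39 over all hearts and −0.58 within groups.

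Slc16a3 and Slc16a10 had the relation least dependent on single hearts. It was r = −0.63 over all hearts (adjusted permutation p 0.003) and rho = −0.72 (adjusted permutation p 0.00105), and −0.65 without the 2 farthest hearts. Within groups r was −0.67 (adjusted permutation p 0.0144) and rho −0.77 (adjusted permutation p 0.00225). With any single heart left out r stayed between −0.73 and −0.58 over all hearts and between −0.71 and −0.65 within groups, with an adjusted permutation p below 0.05 each time. Hearts with more of the MCT4 transcript thus had less of the TAT1 transcript in every such subset.

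The other pairs were less firm. Slc16a3 and Emb, the scarcest members, had r = 0.58 over all hearts (adjusted permutation p 0.00799) and 0.56 within groups (adjusted permutation p 0.0276). Within groups 4 hearts each took that p above 0.05 when left out. Within groups Slc16a1 and Slc16a10 had r = 0.56 (adjusted permutation p 0.039), and Slc16a10 and Emb had r = −0.53 (adjusted permutation p 0.0316). These did not pass without any one of 8 and 6 hearts, and r was 0.35 and −0.42 without WT no pump replicate 3. Slc16a7 and its preferred chaperone Emb had r = 0.29 over all hearts (adjusted permutation p 0.232) and 0.10 within groups (adjusted permutation p 0.785).

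**Figure D4:**
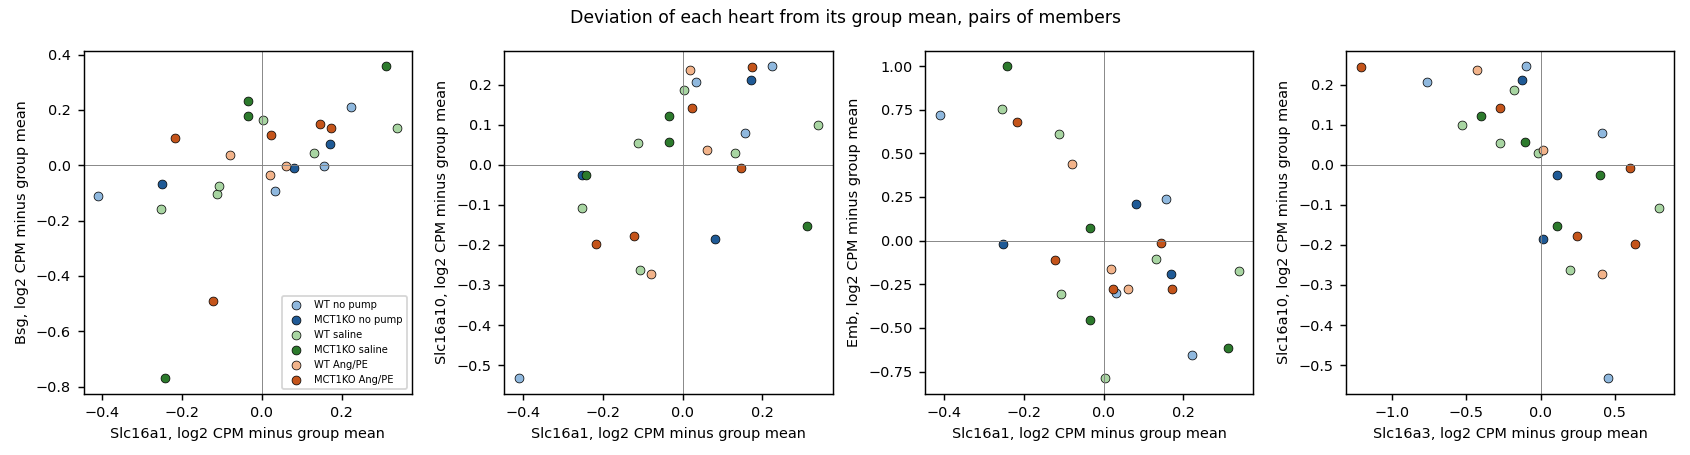
Deviation of log2 CPM from the group mean in each of the 25 hearts for 4 pairs of members, with points marked by group. Slc16a1 rises with Bsg (r = 0.58) and Slc16a10 (r = 0.56) and runs against Emb (r = −0.65), and Slc16a3 runs against Slc16a10 (r = −0.67).

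The genes whose level was most like that of each member over the 25 hearts were found among 11697 genes with a mean log2 CPM above 1, by Pearson correlation and without a test. For Slc16a1 they were Bzw2 (r = 0.87), Mrpl45 (0.86), a protein of the mitochondrial ribosome, and Pdk1 (0.86), a kinase that switches off pyruvate dehydrogenase. For Bsg they were Ckm (r = 0.97), the muscle creatine kinase, Gsto1 (0.93) and Myl3 (0.93), a myosin light chain of ventricular muscle. For Slc16a10 they were Gys1 (r = 0.85), the muscle glycogen synthase, Pdp2 (0.84), a phosphatase that switches pyruvate dehydrogenase on, and Mgrn1 (0.84). For Emb they were Flrt2 (r = 0.90), Psip1 (0.89) and Arrb1 (0.86). Slc16a3 had lower values, with Fgl2 (r = 0.78), Socs2 (0.77) and Nbl1 (0.77), as did Slc16a7, with Prdm9 (r = 0.78), D6Wsu163e (0.73) and Adam22 (0.72). The median r over all these genes lay between −0.05 and 0.04 for each member.

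The other SLC16 carriers, the sodium-coupled lactate carriers, the accessory protein Nptn and the gene Xkr8 made a list of 14 genes. Of these, 10 were tested. The sodium-coupled Slc5a8 had at most 1 count in a heart and Slc5a12 had none, while Slc16a5 had at most 2 and Slc16a8 at most 11. For Ang/PE against saline averaged over the genotypes, 8 of the 10 had an unadjusted p below 0.05, against 24.7% of all genes, and 1 passed in edgeR, against 8.12%, with a median of −0.24 against −0.01 over all genes. The gene that passed was Slc16a13, which fell by 0.32 (SE 0.08, edgeR adjusted p 0.0221), from 5.56 ± 0.602 CPM (SD, n = 6) to 4.23 ± 0.303 CPM (n = 3) in WT hearts and under the MCT1KO label from 5.47 ± 0.164 CPM (n = 4) to 4.63 ± 0.460 CPM (n = 5). Its edgeR adjusted p was 0.0528 without WT Ang/PE replicate 1 and 0.0738 without replicate 3. With the atrial and fat markers as covariates, Slc16a13 was not called, although its value was −0.34. Of the 12 calls among these lists of related genes, 11 were lost with these covariates. The exception was Slc16a6 in Ang/PE against no pump. Slc16a14 fell by 2.44 from no pump to saline in WT hearts (SE 0.61, edgeR adjusted p 0.0229), on at most 30 counts, and was not called without WT no pump replicate 2 or 3 (edgeR adjusted p 0.0863 and 0.0911). It was 1 of the 10 genes in that comparison, where 6.61% of all genes were called.

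Slc16a6 (ENSMUSG00000041920), which encodes a carrier of ketone bodies and taurine, was the carrier gene called higher with Ang/PE. In the 5 Ang/PE hearts labelled MCT1KO it lay at 13.4 to 16.6 CPM (14.98 ± 1.37, SD), and no other heart of the 25 exceeded 12.3 CPM. Against WT hearts with Ang/PE, 5.1% of all tested genes did not overlap either. Under the MCT1KO label this share was 5.42% for Ang/PE against saline and 8.45% against no pump. The share for all groups at once was not computed. The other groups had means from 8.01 to 9.81 CPM, and the WT hearts with Ang/PE were at 9.73 ± 1.08 CPM (n = 3). Under the MCT1KO label it rose by 0.90 against no pump (SE 0.20, edgeR adjusted p 0.0333) and by 0.61 against saline (SE 0.18, edgeR adjusted p 0.0476). In each step it was the 1 gene called of the 10 tested, against 0.503% and 4.46% of all genes. The difference between the labels with Ang/PE was 0.62 (unadjusted p 0.00379, edgeR adjusted p 0.692), and the interaction of the label with the step from saline to Ang/PE was 0.62 (SE 0.26, unadjusted p 0.0246, edgeR adjusted p 0.325), so a response particular to the MCT1KO label did not pass. The step against saline passed in 4 of the 25 fits that each left out 1 heart, with values of 0.49 to 0.72, and the step against no pump passed in 19, with values of 0.85 to 1.00. The latter did not pass without any 1 of the 3 hearts lacking a pump under that label or without Ang/PE replicate 2, 3 or 5. Over 21.5% of its exon length Slc16a6 overlaps Amz2 on the opposite strand, so part of its count may belong to that gene.

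Of 13 tested genes for lactate and pyruvate handling inside the cell, such as lactate dehydrogenase, the mitochondrial pyruvate carrier and pyruvate dehydrogenase, 0 were called between the genotype labels with saline. There 9 of 13 had an unadjusted p below 0.05, against 17% of all genes. Of these 9, Pcx was higher at 0.97 (unadjusted edgeR p 0.0111). Pdk3 was also higher, at 0.67 (unadjusted edgeR p 0.0498), and the others were lower. The list had a median of −0.31 against 0.03 over all genes. The genes of smallest p were the pyruvate dehydrogenase kinases Pdk1 at −0.46 (unadjusted p 0.0011, edgeR adjusted p 0.125) and Pdk2 at −0.43 (unadjusted p 0.00632, edgeR adjusted p 0.17). Mpc1, a subunit of the pyruvate carrier, was the list's only called gene: in WT hearts it fell by 0.61 from no pump to saline (SE 0.14, edgeR adjusted p 0.0158), from 188 ± 13.6 CPM (n = 4) to 124 ± 22.3 CPM (n = 6). It was 1 of 13 genes there, where 6.61% of all genes were called. That call was lost without WT no pump replicate 3 or 4 (edgeR adjusted p 0.0565 and 0.0628). Averaged over the genotypes, where 0.803% of all genes were called, Mpc1 fell by 0.46 (edgeR adjusted p 0.0465). This averaged call held in 3 of the 25 fits that each left out 1 heart. Slc16a1 in the same comparison was also lower, with an unadjusted edgeR p of 0.0811, which was not below 0.05.

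Among 8 proteins known to bind or work with basigin, 2 fell from no pump to saline in WT hearts, where 6.61% of all genes were called. They were the cyclophilin genes Ppia by 0.64 (SE 0.13, edgeR adjusted p 0.011) and Ppib by 0.32 (SE 0.09, edgeR adjusted p 0.0439). Ppia has many near-identical pseudogenes that can share its reads, so its value is uncertain, and it was not called without WT no pump replicate 3 (edgeR adjusted p 0.0599). Ppib was called in 15 of the 25 fits that left out 1 heart. Itgb1, an integrin subunit, rose by 0.27 with Ang/PE averaged over the genotypes (edgeR adjusted p 0.0266), and Cav1, the main protein of caveolae, fell by 0.54 from saline to Ang/PE under the MCT1KO label (edgeR adjusted p 0.0416). Each was the 1 gene of 8 called in its comparison, against 8.12% and 4.46% of all genes. Itgb1 was called in 22 of those fits and Cav1 in 19. Without MCT1KO saline replicate 4 Cav1 was at −0.33 (edgeR adjusted p 0.267). For the interaction with the saline step, 6 of 8 had an unadjusted p below 0.05, against 17.2% of all genes, and 0 were called, with a median of 0.53 against 0.03 over all genes.

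Of 9 transcription regulators known to act on lactate transporter genes, 2 rose with Ang/PE against saline averaged over the genotypes, against 8.12% of all genes called, and 7 had an unadjusted p below 0.05, against 24.7%, with a median of 0.19 against −0.01 over all genes. The genes that rose were Ppargc1a, a coactivator of mitochondrial genes, at 0.56 (edgeR adjusted p 0.0205), and Myc at 1.35 (SE 0.39, edgeR adjusted p 0.038). Without WT Ang/PE replicate 3 the Myc value was 0.56 (edgeR adjusted p 0.371), and Ppargc1a was not called without WT Ang/PE replicate 2 (edgeR adjusted p 0.0674). Myc was called in 16 of the 25 fits. Slc16a1, a known target of both, was also higher in that comparison, with an unadjusted edgeR p of 0.0688, which was not below 0.05.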

How the data were processed

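Per the labels, total RNA of 25 mouse hearts was depleted of ribosomal RNA and made into stranded libraries. The authors deposited 1 table of raw read counts per Ensembl gene. The submitters' processing notes name cutadapt 1.16, STAR 2.7.9a, featureCounts 1.6.3, DESeq2 1.42.1 and the build GRCm39 (mm39), without roles. Whether counting used strand is not given in the sources used here, so reads of overlapping genes on opposite strands may be mixed. All 25 columns matched a sample title, and 0 were left over. Symbols were found for 51948 of 56941 genes, and the rest hold 0.778% of counts. GENCODE M21 (GRCm38) gave only names, exon lengths and GC content (97.1% of tested genes), and no coordinates are printed.

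edgeR 4.0.16 in R 4.3.3 (filterByExpr, TMM, robust glmQLFit, glmQLFTest) was fitted to 17682 genes and all 6 groups, with 19 residual degrees of freedom. P-values were two-sided and adjusted by Benjamini-Hochberg over all tested genes. The procedure was tested on simulated data. Log2 CPM used a prior count of 2. The 43 pairs of libraries within groups differed by a chi-square per degree of freedom of at least 3.33 (genes of 10 or more counts), so each heart counted once. The members, gene lists and tests were chosen with earlier results of these data known. Fold changes are given for members with an unadjusted p below 0.05 and for Slc16a1 between genotypes, for list genes when called and otherwise at most the 2 of smallest p, and the 3 most similar genes of each member. Slc16a6 in comparisons where it was not called, and Pcx and Pdk3, were chosen after their values were seen. Alternatives were RLE factors, DESeq2 1.42.0, no filter, only the groups compared, a replicate block, a non-robust fit, covariates for Xist or for atrial and fat markers, removal of mitochondrial genes and leaving out each heart. The atrial covariate was the mean log2 level of Myl4, Myl7 and Sln, so it left out Nppa, which the atrial sums include. GC and length offsets (mgcv 1.9.3), and all covariates together, were added after seeing the data.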

Additional observations from a re-analysis of the deposited data

Results flagged for a closer look

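In each group of 4 or more hearts, the highest and lowest heart of every member was compared with its nearest neighbour relative to the range of the group. Of 24 such tests 4 had a heart that stood far from the others, where chance gives about 1 in 20, or 1.2 here. Slc16a7 was high in MCT1KO Ang/PE replicate 4, at 4.39 on the log2 CPM scale (20.9 CPM), with the nearest heart at 3.87. Bsg was low in MCT1KO saline replicate 4, at 8.42 (341 CPM), with the nearest heart at 9.36. Bsg was also low in MCT1KO Ang/PE replicate 5, at 9.07 (536 CPM), with the nearest heart at 9.65. Emb was high in MCT1KO Ang/PE replicate 2, at 1.43 (2.58 CPM), with the nearest heart at 0.74. All 4 belong to groups labelled MCT1KO, and groups of 3 hearts were not examined.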

How the results depend on the processing

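Over 11 alternatives and 25 fits that each left out 1 heart, the 15 member differences given with a test took 538 values, of which 11 turned sign, 1 passed the threshold and the others kept their direction and side of it. With atrial and fat markers as covariates, Emb in saline against no pump was −0.11 under the MCT1KO label and −0.35 averaged over genotypes. With Xist, atrial and fat markers together, Emb was −0.66 and −0.49 there, −0.30 between the labels with saline and −0.34 in the interaction. In the same fit Slc16a1 (0.0816) and Slc16a7 (−0.0199) also turned sign for saline against no pump under the MCT1KO label; the cause was not tested. Leaving out single hearts took Slc16a1 between the labels without a pump from −0.14 to 0.0945, with a positive sign without WT replicate 1, WT replicate 2 or MCT1KO replicate 3. It gave 0 to 1 members called for Ang/PE against saline under the MCT1KO label. The 1 was Slc16a7, at −0.75 (edgeR adjusted p 0.0383), without Ang/PE replicate 4.

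Nothing in the labels says that replicate numbers shared between groups pair the hearts. Over 52 same-numbered pairs, deviations from group means had a mean correlation of 0.0094, with single pairs from −0.232 to 0.405. A mean near 0 cannot exclude that some of these hearts were paired. With the replicate block 0 members were called, and between the labels with saline Slc16a1 was −0.41, Slc16a7 0.64 and Emb 1.04 (edgeR adjusted p 0.111, 0.0594 and 0.111). Of 430 values for the 12 calls among genes of the other lists, 138 lost the call and 0 changed sign. Low counts of Slc16a3 and Emb limit what their comparisons can show.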
